A study of Mus musculus with 18 samples.

Results

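The oxidative phosphorylation subunits are the nuclear-encoded proteins of the respiratory chain and of ATP synthase, and their genes were followed through differentiation and irradiation (IR) of mouse embryonic stem cells. Genes were taken as members by their symbols (Nduf, Sdh, Uqcr, Cyc1, Cox4 to Cox8 and Atp5), with assembly factors left out. Of 89 such genes in RefSeq, 86 had a probe on the array, out of 34289 genes in all. These were 38 genes of complex I, 4 of complex II, 9 of complex III, 18 of complex IV and 17 of complex V, on 19 chromosomes. No probe was found for Ndufb1, Ndufb4b and Ndufb4c, or for any of the 13 subunits encoded by mitochondrial DNA. Ndufa4, which is now placed in complex IV, was kept with complex I after its symbol.

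Gene expression was measured on one-color arrays in 6 groups of 3 samples. ES cells were wild-type stem cells from mouse blastocysts, kept with leukemia inhibitory factor (LIF) and without feeder cells. ED cells were the isogenic cells obtained after days in a medium without LIF and, by the study's methods, without beta-mercaptoethanol, a reducing agent, an undirected differentiation that is not expected to give a single cell type. Either kind was left unirradiated (ES and ED) or received 10 Gy, with RNA taken early, after 15 min (ESRE, EDRE), or late, after 4 h (ESRL, EDRL). The samples were irradiated in triplicate, and nothing states that they came from separate cultures, so the p-values measure the spread between these samples, which may be technical. In such bulk samples fewer cells of a type and less RNA per cell cannot be told apart.

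Complexes I to IV pass electrons from NADH and succinate to oxygen, and all of these but complex II pump protons. Complex V, ATP synthase, lets the protons return and makes ATP. Most subunits are used in nearly every cell. Complex IV, cytochrome c oxidase, is unusual in that several of its small nuclear subunits exist as paralogs that replace each other between tissues: Cox6a2, Cox7a1 and Cox8b are heart and muscle forms, Cox6b2, Cox7b2 and Cox8c are forms known from testis, and Cox4i2 is a form known from lung and from low oxygen. Ndufa4l2 is a paralog of Ndufa4 that is induced by low oxygen. Pluripotent stem cells are known to rely on glycolysis to a large extent, and to use respiration more as they differentiate.

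Levels are log2 signals minus the 75th percentile of the same array, so a value of 0 is a spot at that percentile, and each gene is represented by its brightest probe. The level of a probe cannot be set against that of another probe. Of the 86 genes, 78 were well above background on all 18 arrays, 7 on some arrays, and Cox7a2 on 0 arrays. Spots of the members were often marked as outliers by the scanner software and were then not used: 17 genes had a usable spot on all 18 arrays, and Atp5b and Sdhd on 0. EDRE replicates 2 and 3 stood apart, with 26 and 25 usable members against 64 to 77 on the other 16 arrays, and replicate correlations in that group were 0.894 to 0.96, against 0.959 to 0.995 in the others. Many EDRE values therefore come from 1 array, and results that rest on EDRE are also given without replicates 2 and 3. The arrays fell into 6 scan times, and no scan time held a group together with its unirradiated control. In comparisons with unirradiated cells, IR and scan time therefore cannot be told apart. All ED arrays were of 1 scan time and all ES arrays of another, so that in ED against ES cell type and scan time cannot be told apart.

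NRF1, ERR, YY1 and ETS factors are known activators of respiratory genes, and the promoters of the members were searched for a core of each on both strands. A match is a description and not a site. RefSeq promoters (build GRCm38.p6, 250 bases before to 50 after the start) were found for 69 of the 86 genes, 74 promoters in all. The NRF1 core GCGCATGCG stood in 8 of them (10.8%), against 2.35% of 21262 promoters of protein-coding genes. The YY1 core AAGATGGCG stood in 7 (9.46%, against 1.83%), the ERR core TCAAGGTCA in 2 (2.7%, against 0.334%) and the ETS core CCGGAAGTG in 2 (2.7%, against 2.71%). The NRF1 core overlaps its own reverse complement in 1 run, which is then in capitals. The first set of sequences is printed because its genes fell most in ED cells among those with a promoter in the table, and no searched core stood in them: Cox7a1 (chr7:30183921-30184220, plus strand), Cox7b2 (chr5:71548156-71548455, minus strand) and Cox6b2 (chr7:4753045-4753344, minus strand).
Cox7a1: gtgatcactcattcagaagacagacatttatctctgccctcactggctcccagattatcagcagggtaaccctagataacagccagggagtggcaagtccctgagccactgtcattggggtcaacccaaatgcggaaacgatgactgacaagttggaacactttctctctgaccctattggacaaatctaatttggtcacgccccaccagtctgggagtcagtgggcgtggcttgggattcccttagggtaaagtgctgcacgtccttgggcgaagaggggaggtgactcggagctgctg
Cox7b2: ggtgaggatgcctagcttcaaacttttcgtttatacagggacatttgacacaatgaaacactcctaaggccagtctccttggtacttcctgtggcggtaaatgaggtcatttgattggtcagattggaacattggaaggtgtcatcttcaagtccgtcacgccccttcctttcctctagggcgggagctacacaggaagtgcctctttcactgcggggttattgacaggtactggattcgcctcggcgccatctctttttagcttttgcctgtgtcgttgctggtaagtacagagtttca
Cox6b2: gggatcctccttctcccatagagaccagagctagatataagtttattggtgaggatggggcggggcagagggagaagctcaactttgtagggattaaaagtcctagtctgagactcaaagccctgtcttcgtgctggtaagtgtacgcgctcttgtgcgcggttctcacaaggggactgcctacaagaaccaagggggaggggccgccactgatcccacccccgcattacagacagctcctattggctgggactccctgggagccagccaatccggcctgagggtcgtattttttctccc
Of the 14 promoters of genes that fell in ED cells, 2 (14.3%) held a core, against 19 of the 74 member promoters (25.7%) and 6.91% of all promoters. It was NRF1 in each case, in Uqcrc1 (chr9:108936398-108936697, plus strand) and Cox6a1 (chr5:115348909-115349208, minus strand), both subunits of broad use.
Uqcrc1: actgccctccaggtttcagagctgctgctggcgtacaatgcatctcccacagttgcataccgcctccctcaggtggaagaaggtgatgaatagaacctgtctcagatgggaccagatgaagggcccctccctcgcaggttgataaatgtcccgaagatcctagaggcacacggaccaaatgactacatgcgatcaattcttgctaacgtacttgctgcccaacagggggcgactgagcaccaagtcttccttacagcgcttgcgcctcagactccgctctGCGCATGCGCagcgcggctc
Cox6a1: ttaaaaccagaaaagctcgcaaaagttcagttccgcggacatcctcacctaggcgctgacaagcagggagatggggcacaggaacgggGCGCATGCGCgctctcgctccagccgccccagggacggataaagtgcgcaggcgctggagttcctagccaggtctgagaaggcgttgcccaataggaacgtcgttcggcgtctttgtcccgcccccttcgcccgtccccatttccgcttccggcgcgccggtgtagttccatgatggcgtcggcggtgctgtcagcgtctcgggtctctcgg

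Differentiation was asked first, by comparing ED with ES cells. The largest falls in ED cells were those of the paralogs Cox7a1, Cox8c, Cox7b2, Cox6b2 and Ndufa4l2, by 6.41-fold or more. The largest rises were those of Atp5j, by 4.24-fold but with few usable arrays, and of the paralog Cox6a2, by 3.61-fold. Of all members tested, 64 lay within 2-fold. Of 72 members tested, 16 fell and 4 rose at an adjusted p under 0.05. Over all 26121 genes tested, 31.7% fell and 19.2% rose, so with this scaling the shares of members, 22.2% and 5.56%, were below the background in either direction. Beyond 2-fold, 6 members fell (8.33%) and 2 rose (2.78%), against 26.3% and 14.7% of all genes. The remaining 52 members ranged from -0.90 to 0.62 on the log2 scale, and for 40 of them the 95% interval lay within 2-fold.

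**Figure D1:**
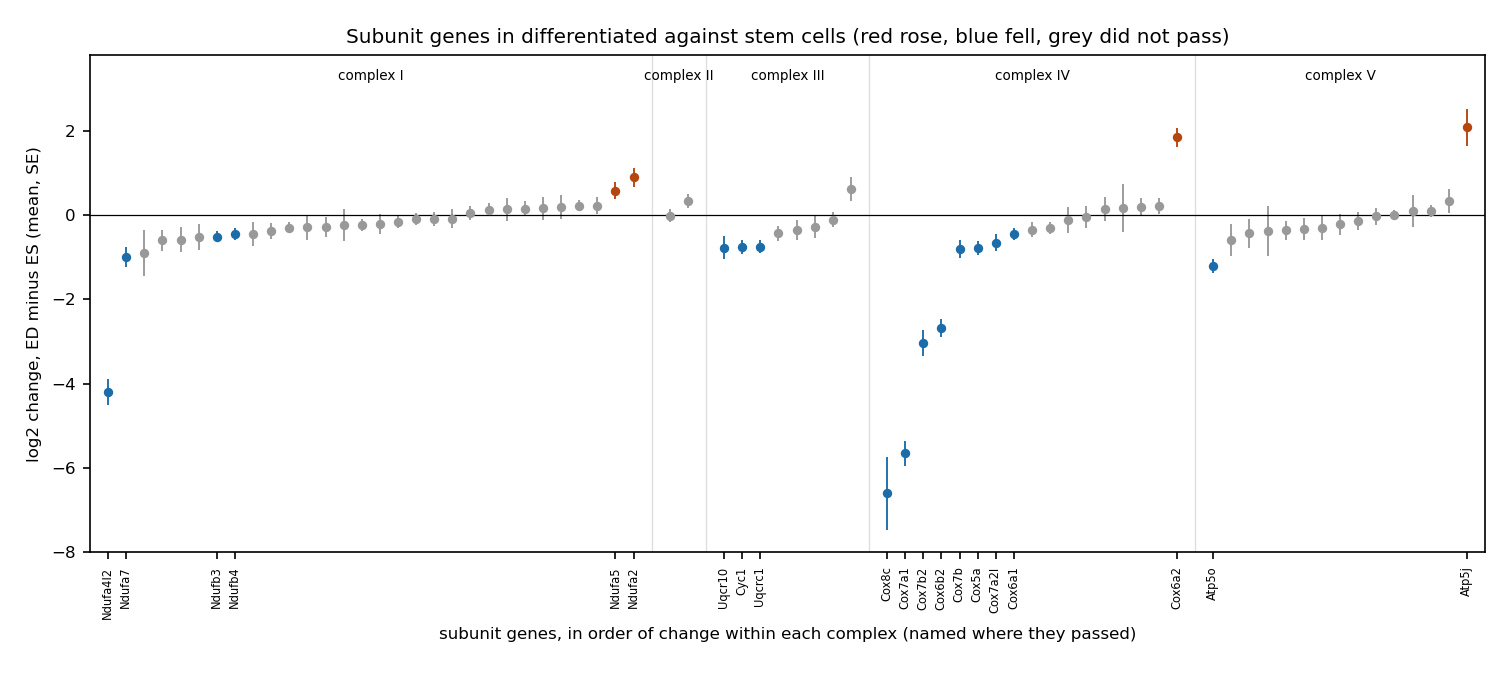
Log2 change of each of the 72 tested subunit genes, ED minus ES, sorted within the 5 complexes (points, fitted difference; bars, SE). Genes that fell are blue, genes that rose are red, and those that did not pass are grey and not named; 64 of the 72 lie within 1 of 0, and the large falls are those of Ndufa4l2 and of 4 genes of complex IV.

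The balance of rises and falls depends on the scaling. With values relative to the 75th percentile the median change was -0.26 for the members and -0.19 for all genes. Scaled to the median of the array, these medians were 0.38 and 0.46, and 23 members rose and 6 fell. The members' median was thus slightly below that of all genes under both, but the share of positive changes was not. It was 30.6% of members against 42.7% of all genes with the 75th percentile, and 80.6% against 63.6% with the median scaling. With quantile normalization the distance was wider, at -0.20 for the members and 0.24 for all genes, and 6 members rose and 17 fell. A positive change was then seen in 37.5% of members and 56.3% of all genes. The shares of all genes called under the median scaling and quantile normalization are not given here, so these counts have no background beside them. Of the 20 members called, 17 kept their sign under all scalings and background corrections tried, and Ndufb3, Ndufb4 and Cox6a1 turned with the median scaling. Fewer kept their call, as 10 of the 20 still passed under the median scaling. Those lost were Cox5a, Cox6a1, Cox7a2l, Cox7b, Cyc1, Ndufa7, Ndufb3, Ndufb4, Uqcr10 and Uqcrc1. With the log2 values that the authors deposited 9 still passed, and Atp5o was lost as well. With scan time as a random block, 8 of the 20 still passed: Cox7a1, Cox8c, Cox7b2, Cox6b2, Cox6a2, Ndufa4l2, Atp5o and Ndufa2.

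Cox7a1, the heart and muscle form of subunit VIIa, had the best measured fall. Its level was 2.48, 2.23 and 2.38 in ES cells and -3.38, -3.33 and -3.18 in ED cells. This is a fall by 5.66 on the log2 scale (SE 0.29, adjusted p = 3.75e-10), or 50.6-fold. The irradiated groups kept the same split, with 2.03 to 3.35 on the arrays of ESRE and ESRL and -4.40 to -3.46 on those of EDRE and EDRL.

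The testis forms fell as well. Cox7b2 was at -1.81, -1.88 and -1.76 in ES cells and at -4.89, -4.92 and -4.73 in ED cells, a fall by 3.03 (SE 0.31, adjusted p = 1.02e-06). Cox6b2 was at 3.52, 3.51 and 3.29 against 0.81, 0.72 and 0.75, a fall by 2.68 (SE 0.21, adjusted p = 3.87e-08). The ED arrays lay below every ES array in both genes, and the irradiated arrays of each cell type lay on the side of their own unirradiated cells. A second, dimmer probe of Cox6b2, for another transcript, did not show this (0.39, SE 0.53, adjusted p = 0.597). Cox8c was at -2.07, -2.15 and -2.05 in ES cells and at -10.01, -9.47 and -6.62 in ED cells, where it was well above background on 1 of 3 arrays. It fell by 6.61 (SE 0.86, adjusted p = 1.14e-05), a size that depends on the background correction, since with normexp it fell by 3.79.

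Ndufa4l2 fell by 4.21 (SE 0.31, adjusted p = 2.19e-07). It was at -0.38 on the 1 usable ES array and at -4.68, -4.51 and -4.60 in ED cells, so the test assumes that this array varies like those of the other groups. With the outlier spots kept the other ES arrays read -0.11 and -0.29, and the fall was by 4.33 (SE 0.23, adjusted p = 2.72e-10). Its partner Ndufa4 did not pass (0.14, SE 0.27, adjusted p = 0.742).

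Cox6a2, another muscle form, went the other way. Its level was -4.17, -4.63 and -4.54 in ES cells and -2.68, -2.35 and -2.74 in ED cells, a rise of 1.85 (SE 0.22, adjusted p = 4.32e-06). Thus the muscle forms did not move together: Cox7a1 fell, Cox6a2 rose, and Cox8b gave a change of 0.18 with an interval of -1.04 to 1.41. Cox4i2 and its broadly used partner Cox4i1 gave -0.11 (interval -0.78 to 0.56) and -0.34 (-0.72 to 0.05), and neither passed.

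**Figure D2:**
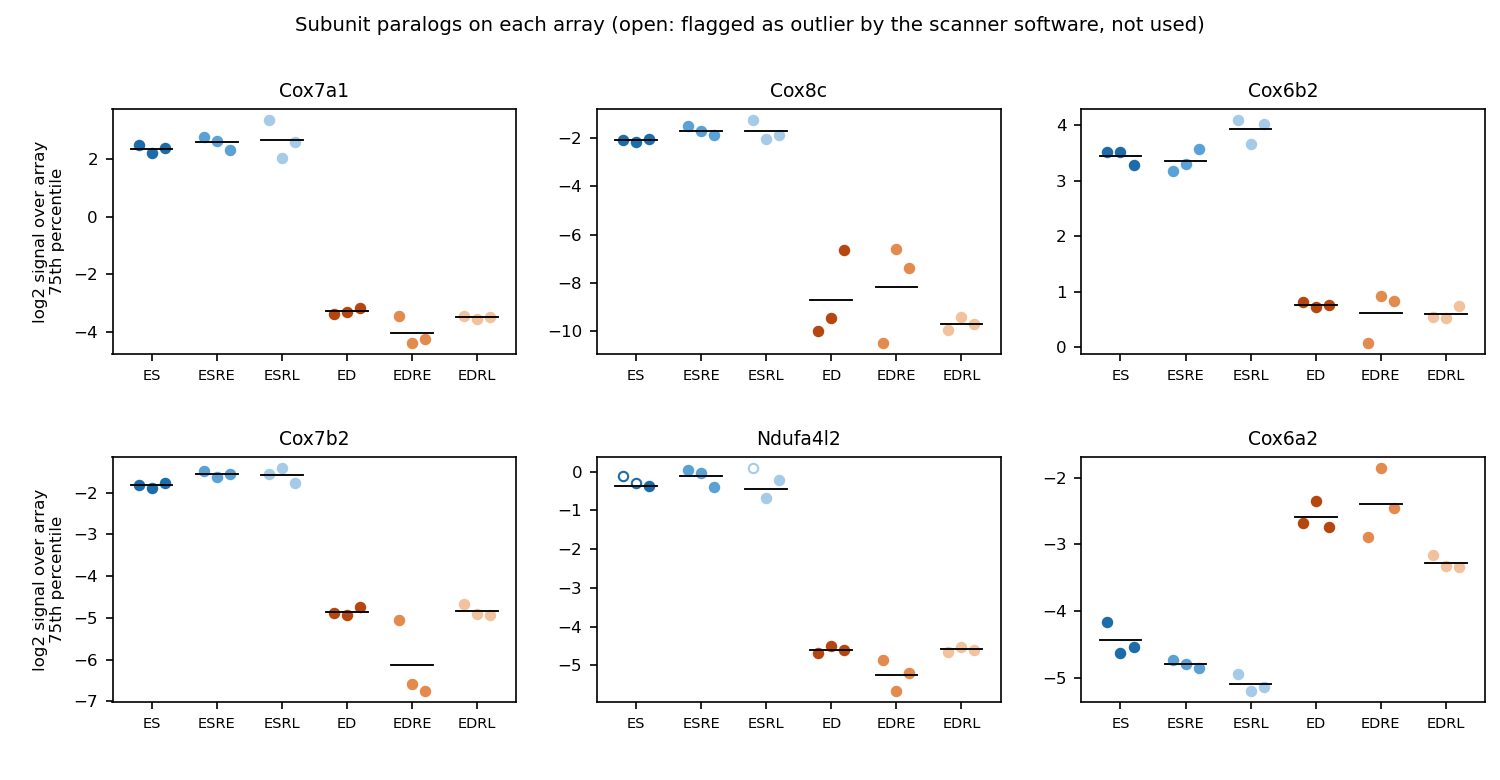
Log2 signal minus the array's 75th percentile for 6 paralogs on all 18 arrays, in the groups ES, ESRE, ESRL, ED, EDRE and EDRL (filled points, values used; open points, spots marked as outliers and not used; lines, group means of the values used). In Cox7a1, Cox8c, Cox6b2, Cox7b2 and Ndufa4l2 every array of ES cells lies above every array of ED cells, and in Cox6a2 below.

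Muscle and germ cell markers were also lower in ED cells, and their part in the result was not tested. Of 8 muscle markers 7 were tested and 6 fell, among them Myh6 by 6.51 and Actc1 by 4.27. Their summed level, as a linear multiple of the 75th percentile with outlier spots kept, was 1.75 to 1.83 in ES and 0.0861 to 0.116 in ED arrays, where Tnnt2 and Des were not well above background. Of the 3 germ cell markers only Sycp3 was tested, and it fell by 5.74. With outlier spots kept, which include all ES spots of Ddx4 and Dazl, the 3 summed to 7.87 to 8.43 in ES and 0.0349 to 0.0382 in ED arrays, and Ddx4 and Dazl were not well above background in ED cells. The differentiation itself was plain in the markers. All 7 stem cell markers tested fell. Pou5f1 fell by 10.29, and 5 of 6 mesenchyme markers rose, S100a4 by 10.20, while the remaining one, Thy1, fell to a level not well above background. Of the endoderm markers 3 of 3 tested fell, and of the neural markers 1 of 5 rose and 1 fell.

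The broadly used subunits that fell in ED cells did so by 2.32-fold or less. Atp5o, which joins the catalytic head of ATP synthase to its stalk, was at 5.96, 5.80 and 5.86 in ES cells and at 4.55, 4.65 and 4.78 in ED cells, a fall by 1.21 (SE 0.16, adjusted p = 3.16e-05). In complex III, Cyc1, the heme protein cytochrome c1, was at 4.94, 4.87 and 4.81 against 4.12, 3.97 and 4.27, a fall by 0.75 (SE 0.17, adjusted p = 0.00218). Uqcrc1, a core protein of that complex, was at 5.52, 5.32 and 5.28 against 4.38, 4.64 and 4.83, also a fall by 0.75 (SE 0.16, adjusted p = 0.00171). The ED arrays lay below the ES arrays in each of these genes. Under the median scaling Cyc1 and Uqcrc1 kept the sign but not the size, at -0.11 each. The small subunit Uqcr10 fell by 0.77 (adjusted p = 0.0476) on 2 arrays a group, a call that held in 0 of the 6 fits that left out an ES or ED array.

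In complex IV, Cox5a fell by 0.78 (SE 0.17, adjusted p = 0.00202), from 5.17, 5.16 and 5.14 to 4.22, 4.46 and 4.44. Cox7b fell by 0.80 (SE 0.22, adjusted p = 0.00625). Cox7a2l, which takes part in joining complexes into supercomplexes, fell by 0.65 (SE 0.20, adjusted p = 0.0164), and a second probe gave -0.63. Cox6a1, the broadly used partner of Cox6a2, fell by 0.45 (SE 0.15, adjusted p = 0.0229) but read 0.20 under the median scaling.

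Complex I moved in both directions among its accessory subunits. Ndufa7 fell by 1.00 (SE 0.24, adjusted p = 0.00317), Ndufb3 by 0.51 (adjusted p = 0.00572) and Ndufb4 by 0.45 (adjusted p = 0.0177), and the latter pair read 0.14 and 0.20 under the median scaling. Ndufa2 rose by 0.90 (SE 0.22, adjusted p = 0.00323), from 0.12, 0.28 and 0.39 to 1.17, 1.09 and 1.24. Ndufa5 rose by 0.58 (SE 0.20, adjusted p = 0.0309), a call that held in 1 of the 6 fits that left out an ES or ED array. Atp5j, the coupling factor 6 of ATP synthase, rose by 2.09 (SE 0.44, adjusted p = 0.0292), but its level rests on 1 ES array at 0.03 and on 2 ED arrays at 1.81 and 2.42. With outlier spots kept its ES arrays read 0.03, 0.66 and 0.45 and its ED arrays 1.81, 2.42 and 2.54.

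Few of the core, catalytic, iron-sulfur and heme subunits passed. Of 19 such genes 14 were tested, 2 fell (Cyc1 and Uqcrc1) and the other 12 did not pass, whereas over all genes 31.7% fell and 19.2% rose. The median change was -0.05, against -0.19 for all genes, and the list was not tested against these values. Ndufv2, an iron-sulfur subunit of complex I, gave 0.22 (interval -0.07 to 0.51). In complex II, which also belongs to the TCA cycle, Sdha was at 3.21, 3.23 and 3.04 in ES and 3.69, 3.63 and 3.17 in ED cells, a difference of 0.34 (interval -0.02 to 0.69) that did not pass, and Sdhb gave -0.01 (-0.35 to 0.33). Uqcrfs1, the Rieske iron-sulfur protein, gave 0.62 (-0.01 to 1.25). Among the 14 members that could not be tested, 13 had a value once outlier spots were kept, and 3 then passed: Ndufv3 at -1.68, Atp5h at -1.01 and Ndufb2 at 1.58. The share of all genes called in that fit is not given here. Atp5b, the catalytic beta subunit of ATP synthase, then gave 0.13 (SE 0.46).

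By complex, the median change was -0.22 in complex I (30 tested, 4 fell, 2 rose), 0.16 in complex II (2 tested, neither passed), -0.39 in complex III (8 tested, 3 fell), -0.34 in complex IV (17 tested, 8 fell, 1 rose) and -0.21 in complex V (15 tested, 1 fell, 1 rose). Over all genes tested 31.7% fell and 19.2% rose, and the complexes were not tested against these shares.

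The other genes of the pathway changed in either direction in ED cells. Of 39 assembly factors 32 were tested and 10 fell (31.2%, against 31.7% of all genes), such as Nubpl by 1.83 and Ndufaf6 by 1.58, both assembly factors of complex I, and 4 rose (12.5%, against 19.2%), such as Cox14 by 1.14. Among 13 regulators of mitochondrial genes tested, 5 fell (38.5%) and 3 rose (23.1%). Ppargc1a, a coactivator that raises the expression of respiratory genes in several tissues, rose by 4.81 (SE 0.65, adjusted p = 1.68e-05), from a mean of -7.78 in ES cells, where 2 of 3 arrays were well above background, to -2.97. Nrf1 rose by 1.04, whereas Tfam, which is needed to transcribe mitochondrial DNA, fell by 0.98 (SE 0.21, adjusted p = 0.00141), Tfb1m by 1.30 and Gabpb1 by 1.16. Of 7 carriers tested 2 fell (28.6%) and 1 rose (14.3%). Cyct, the testis form of cytochrome c, fell by 8.91 (SE 0.25, adjusted p = 8.37e-13), from 3.22 ± 0.02 to -5.69 ± 0.25 (SD, n = 3 each), in the same direction as the testis forms of complex IV. The somatic form Cycs was well above background on 2 ES arrays and 1 ED array and was not tested there. Slc25a31, a germ line form of the ATP and ADP carrier, fell by 1.08, and the uncoupling protein Ucp1 rose from a level not well above background on any ES array. In coenzyme Q synthesis 2 rose and 2 fell of 10 tested, with Coq4 at 2.41 and Coq7 at -1.20. In the TCA cycle 3 rose and 2 fell of 8 tested, with Cs, citrate synthase, at 1.03.

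IR of ES cells was compared next, at 15 min (ESRE) and 4 h (ESRL) against the same ES arrays. Most members read slightly higher after 10 Gy, but few passed the test, and no irradiated ES array shared a scan time with the unirradiated ones. At 15 min, 0 of 70 members passed, against 0.543% of 25405 genes. At an unadjusted p under 0.05 there were 18 members, and the methods' t-test with adjustment gave 0 as well. At 4 h 4 of 71 members rose (5.63%) and 1 fell (1.41%), against 1.66% and 7.49% of 25490 genes. The median change was 0.23 at 15 min and 0.33 at 4 h, against -0.08 and -0.18 for all genes. A positive change was seen in 54 of 70 members (77.1%) and in 64 of 71 (90.1%), against 40.8% and 37.1% of all genes. These shares share the ES arrays and are descriptions. At 4 h some members read high mainly on ESRL replicate 1, the only array of its scan time. On that array 63.3% of probes were well above background. Ndufb7 read 5.23 there against 3.73 and 4.02 on the other ESRL arrays, with an ES mean of 4.04. Cox5a read 5.61 against 4.91 and 5.05, with an ES mean of 5.16. Other members, such as Cox8a (6.59, 6.63 and 6.49) and Atp5mpl, read alike on all ESRL arrays. With quantile normalization the medians were 0.04 and 0.18, against -0.03 and -0.03 for all genes.

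The 4 genes that rose at 4 h were Cox5b and 3 genes of ATP synthase. Atp5mpl, a small membrane subunit, was at 5.32, 5.32 and 5.27 in ES cells and at 5.85, 5.85 and 5.75 in ESRL cells, a rise of 0.51 (SE 0.12, adjusted p = 0.0239). Cox5b was at 5.10 and 5.19 on the usable ES arrays and at 6.03, 5.75 and 5.68 in ESRL cells, a rise of 0.68 (SE 0.19, adjusted p = 0.0393). Atp5e, the epsilon subunit, rose by 0.72 (SE 0.20, adjusted p = 0.0468) and Atp5o by 0.56 (SE 0.16, adjusted p = 0.0485). At 15 min the same genes read 0.45, 0.67, 0.66 and 0.33 and did not pass. Uqcrc1 gave 0.52 and 0.51 at the 2 times (adjusted p = 0.24 and 0.0744), with all ESRE and ESRL arrays above the ES arrays. Sdha gave -0.41 and -0.34, and did not pass either (adjusted p = 0.417 and 0.227).

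Cox4i2 was the member that fell at 4 h in ES cells, and it also read lower at 4 h in ED cells. It was at 0.55, 0.51 and 0.56 in ES, 0.32, 0.46 and 0.35 in ESRE and -0.43, -1.50 and 0.03 in ESRL cells, a fall by 1.17 at 4 h (SE 0.31, adjusted p = 0.0313). The ESRL arrays lay below the ES arrays but were widely spread. At 4 h 2 of 3 endoderm markers tested fell, Gata4 by 1.07 and Sox17 by 1.18, and 1 of 7 muscle markers tested, Ckm, fell by 1.25 while the median of that list was 0.06, and their part in the changes of the members was not tested.

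**Figure D3:**
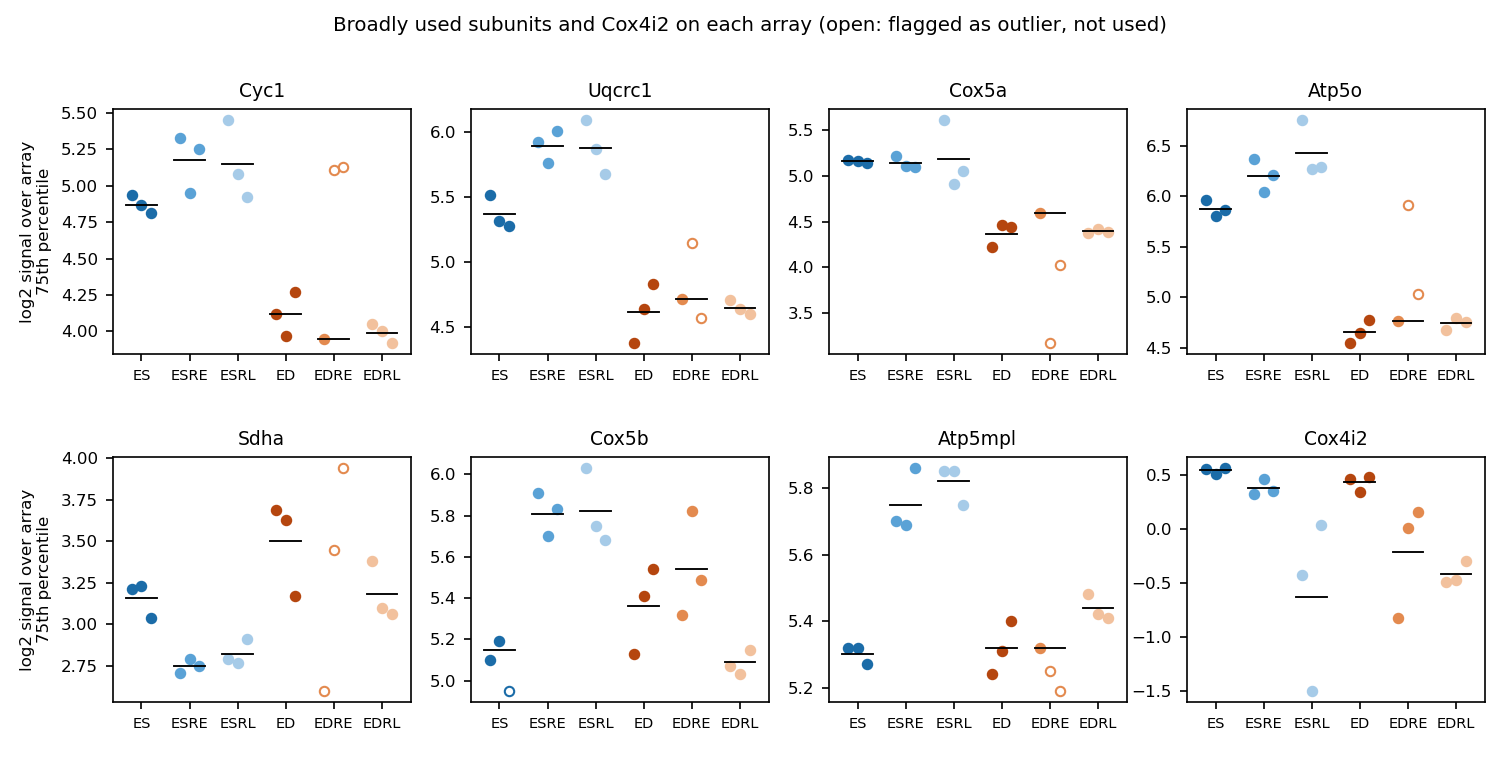
Log2 signal minus the array's 75th percentile for 7 broadly used subunits and Cox4i2 on all 18 arrays, by group (filled points, values used; open points, spots marked as outliers and not used; lines, group means of the values used). Cyc1, Uqcrc1, Cox5a and Atp5o lie lower in all arrays of ED than of ES cells, the used values of Cox5b and Atp5mpl lie higher in ESRE and ESRL than in ES cells, and the open points of EDRE replicates 2 and 3 are scattered.

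These calls in irradiated ES cells were not firm. With scan time as a random block, 0 members passed at 4 h, and the same was seen when ES and ESRL were fitted alone. Leaving out 1 array moved the count of 5 by over 1.5 times for 16 of the 18 arrays (all but EDRE replicate 3 and ESRL replicate 3), to 0 without any 1 of the ES arrays and to 16 without EDRE replicate 1, which enters through the shared spread.

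In ED cells the members showed little after IR. At 15 min 3 of 70 passed (4.29%), against 7.26% of 22303 genes, and at 4 h 0 of 72, against 2.34% of 23122 genes. At an unadjusted p under 0.05 there were 2 members at 4 h, and the methods' t-test with adjustment gave 1. The median change was 0.09 at 15 min and -0.04 at 4 h, against 0.02 and -0.10 for all genes. The largest change at 4 h was that of Cox4i2, at -0.85, which did not pass. It was at 0.46, 0.34 and 0.48 in ED and at -0.49, -0.47 and -0.30 in EDRL cells. The EDRE arrays read -0.83, 0.01 and 0.15, all below the ED arrays. The lowest was EDRE replicate 1, which shares the scan time of the EDRL arrays, so the lower level was not particular to 4 h. For this gene the change in ES minus that in ED cells was -0.32 at 4 h and did not pass. Of 6 muscle markers tested at 4 h 2 rose, Myh7 and Myh6, which were well above background on 1 and 2 of the 3 ED arrays, and the median of the list was 0.08.

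At 15 min Ndufb6 and Cox8a rose and Cox7b2 fell, and these calls rest on EDRE replicates 2 and 3. Ndufb6, an accessory subunit of complex I, was at 3.96, 4.10 and 4.40 in ED and at 4.40, 5.65 and 5.29 in EDRE cells, a rise of 0.96 (SE 0.23, adjusted p = 0.0307). Cox8a, the broadly used form of subunit VIII, was at 5.90, 6.12 and 6.33 against 6.25, 7.63 and 7.24, a rise of 0.92 (SE 0.25, adjusted p = 0.0423). Cox7b2 was at -4.89, -4.92 and -4.73 against -5.06, -6.59 and -6.75, a fall by 1.28 (SE 0.31, adjusted p = 0.0301), with 1 of 3 EDRE arrays well above background. In all 3 genes EDRE replicate 1 lay close to the ED arrays and the other 2 lay apart. Without those 2 arrays 0 members passed, and with the normexp background correction Cox7b2 read 0.72.

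The times were compared within each cell type. From 15 min to 4 h 0 of 70 members passed in ES cells, against 6.29% of 22568 genes, with 7 members at an unadjusted p under 0.05, 0 by the methods' t-test with adjustment, and a median of 0.03. In this comparison arrays of the same scan time could be set against each other, and 1 of 65 members then passed, Cox6b2. The share of all genes called in that fit is not given here. On the arrays of the shared scan time Cox6b2 read 3.17 and 3.31 in ESRE and 3.67 and 4.02 in ESRL cells. Its second probe did not rise there, at -2.78 and -2.69 against -2.72 and -5.16. In ED cells Cox7b2 rose by 1.30 (SE 0.31, adjusted p = 0.0199) and Cox6a2 fell by 0.88 (SE 0.22, adjusted p = 0.0224) from EDRE to EDRL, 2 of 69 members (2.9%) against 10.9% of 21957 genes. EDRE replicate 1 is the single EDRE array that shares a scan time with the EDRL arrays. Against it alone these changes read 0.23 and -0.39 and did not pass, and 0 members passed without EDRE replicates 2 and 3.

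**Figure D4:**
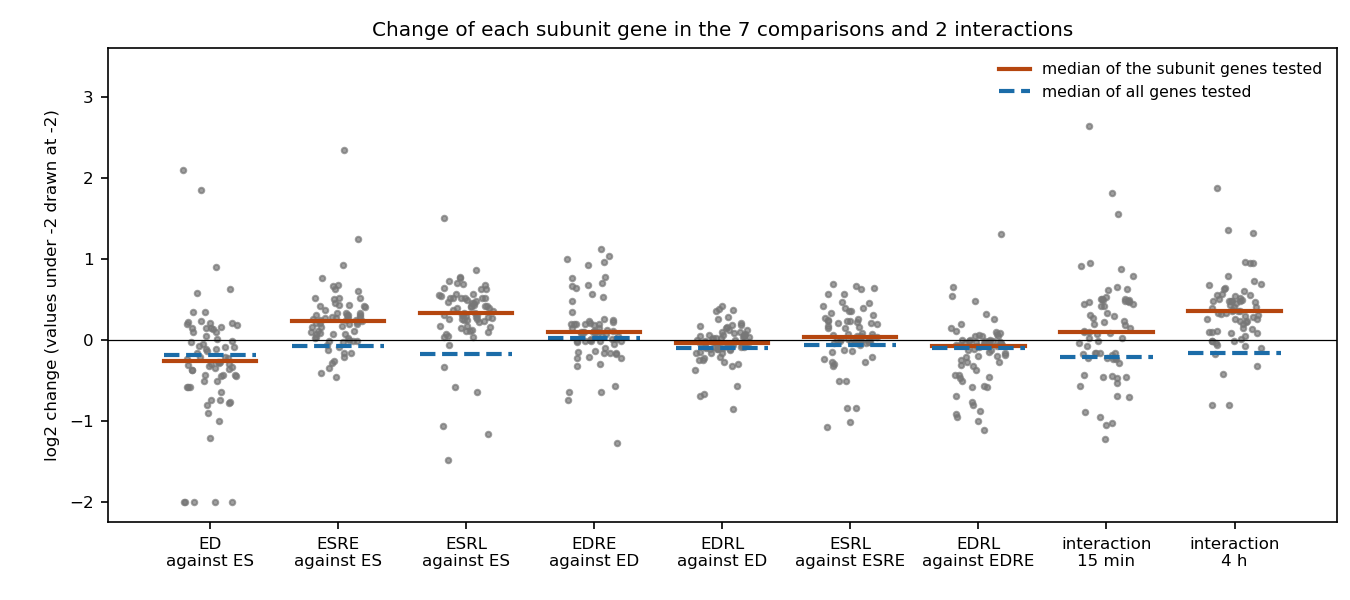
Log2 change of each tested subunit gene (grey points) in the 7 comparisons and the 2 interactions of IR and cell type, with values under -2 drawn at -2. The median of the members (solid line) lies above that of all genes (broken line) in ESRE and ESRL against ES and in the interactions, and close to it elsewhere.

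Whether IR acted differently in the 2 cell types was tested as an interaction, the change in ES minus the change in ED cells. At 15 min 1 of 69 members passed (1.45%), against 2.0% of 25660 genes, and at 4 h 0 of 69, against 1.14% of 25900 genes. The median interaction at 4 h was 0.36, against -0.16 for all genes, with 57 of 69 members positive and 10 at an unadjusted p under 0.05. The methods' t-test was not possible for an interaction. The member that passed was Uqcrfs1, the Rieske protein. It was at -1.20 and -1.07 on the usable ES arrays, at -0.08, 0.13 and 0.26 in ESRE, at -0.59, -0.52 and -0.44 in ED, and at -0.58 and -1.59 on the usable EDRE arrays. All ESRE arrays lay above the ES arrays, and the EDRE arrays disagreed with each other. The interaction was 1.81 (SE 0.41, adjusted p = 0.0462). The change was 1.24 in ES cells (adjusted p = 0.0944) and -0.57 in ED cells (adjusted p = 0.232), neither of which passed alone, and without EDRE replicates 2 and 3 the interaction was 1.31 and did not pass.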

How the data were processed

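Transcripts of 18 samples (6 labelled groups of 3) were measured on Agilent one-color arrays. The deposited intensity values are the scanner software's processed signals, from which background had been subtracted, with no normalization across arrays. The labels give Agilent Feature Extraction 9.1 and the file headers 10.7.3.1. The authors also deposited log2 values for 30133 probes, which as tested on the files are log2 signals (floor 5) minus about the median of the array (column medians from 0.57 to 0.72), and which were used as an alternative.

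After removal of control spots and of spots marked as outliers, each array's 75th percentile was subtracted from its log2 signals. RefSeq (GRCm38.p6) named 22216 of 37246 probes, and 94 probes of 86 genes met the rule on symbols. Atpif1 is not among them by its symbol. Tests took probes that every array of 1 or more of the compared groups showed well above background. All 6 groups entered 1 linear model (limma 3.58.1, R 4.3.3), fitted for each pattern of usable spots, and p-values were adjusted by Benjamini-Hochberg over all probes tested. The brightest probe stood for its gene. The procedure was tested on simulated data.

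The members, the gene lists and the alternatives were chosen with earlier results of these data known. The genes named are catalytic subunits and paralog sets, with the 3 strongest changes in either direction that passed in a comparison, and other called members are named as well. Replicate numbers did not pair the samples (21 correlations from -0.36 to 0.218). The number of arrays limits the precision, and between 49.5% and 86.1% of probes were well above background.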

Additional observations from a re-analysis of the deposited data

Results flagged for a closer look

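Uqcrfs1 was singled out because its change 15 min after IR was not the same in ES as in ED cells, by a test of the interaction itself (log2 difference 1.81, SE 0.41, adjusted p = 0.0462). It passed in 1 of the 12 fits that left out an array of the 4 groups compared, the one without EDRE replicate 1, and in these fits the interaction ranged from 1.31 to 2.31 and the adjusted p reached 0.137. The EDRE value rests on 2 usable arrays that differed from each other.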

How the results depend on the processing

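The number of members called depended on the processing, except that the count for ED against ES stayed within 1.5 times of 20 with every array left out (15 to 26). For ED against ES, the median scaling gave 29 and the deposited log2 matrix 30, with the balance turned to rises, and scan time as a random block gave 8, array weights 40 and the 2 groups alone 33. For ESRE against ES (0), keeping outlier spots gave 1, array weights 21, the groups alone 6, the matrix 1 and leaving out EDRE replicates 2 and 3 gave 3. For ESRL against ES (5), median scaling gave 16, the matrix 11, array weights 28 and leaving out EDRE replicates 2 and 3 gave 19, whereas no detection filter gave 2, quantile normalization 1 (a fall), and normexp, the scan-time block, the groups alone and the methods' t-test gave 0. For EDRE against ED (3), median scaling gave 5, outlier spots kept 8, array weights 18, the matrix 10, quantile normalization 1, and the scan-time block, the groups alone, the methods' t-test and leaving out EDRE replicates 2 and 3 gave 0. For EDRL against ED (0), array weights gave 8, the groups alone 3, the methods' t-test 1 and leaving out EDRE replicates 2 and 3 gave 1. For ESRL against ESRE (0), median scaling, any probe of a gene and scan time as a fixed block gave 1 each, the random block 2, array weights 4 and leaving out EDRE replicates 2 and 3 gave 4. For EDRL against EDRE (2), median scaling gave 4, outlier spots kept 14, array weights 20, the matrix 7, and both blocks of scan time, the groups alone, the methods' t-test and leaving out EDRE replicates 2 and 3 gave 0. For the interaction at 15 min (1), outlier spots kept and the matrix gave 3 each, array weights 16, and median scaling, normexp, no detection filter, the scan-time block, the groups alone and leaving out EDRE replicates 2 and 3 gave 0. For the interaction at 4 h (0), array weights gave 15 and leaving out EDRE replicates 2 and 3 gave 1. With the replicate number as a block the counts were 19, 0, 2, 2, 0, 0, 2, 0 and 0 in this order, and the numbers do not pair the samples. With 1 array left out at a time, the counts were 0 to 1 (ESRE), 0 to 16 (ESRL), 0 to 17 (EDRE), 0 to 1 (EDRL), 0 to 5 (ESRL against ESRE), 0 to 18 (EDRL against EDRE), 0 to 14 (interaction at 15 min) and 0 to 1 (at 4 h), and EDRE replicate 1 gave the highest count for ESRL, EDRE, EDRL against EDRE and the interaction at 15 min. Of single genes called in ED against ES, Ndufb3 turned to 0.14 and Ndufb4 and Cox6a1 to 0.20 under the median scaling and in the matrix, and Cox7b2 turned to 0.72 (EDRE against ED) and -0.60 (EDRL against EDRE) under normexp. The causes were not tested. Leaving out EDRE replicates 2 and 3 and the fixed block of scan time were chosen after seeing the data.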
